A study of Danio rerio with 16 samples.

Results

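The question addressed here is whether gene expression in the testis followed the concentration of exemestane (EM) among fish that all received the drug. The 6 EM-males were used, out of 16 gonad libraries in the series: 2 males for each concentration of 50, 100 and 200 μg/L. They were chosen by their labels alone, as every male exposed to EM, and the control males were kept out of the trend. All fish were zebrafish of the AB strain, 4 months old, whose gonads were taken after 32 days of continuous exposure to EM dissolved in dimethyl sulfoxide (DMSO) and renewed daily in the water. The 2 control males were kept for the same time at 0 μg/L. Their titles read control and do not say whether they received DMSO. The paper describes both a DMSO control and a control without it. The 2 control males are used below only as values set beside those of the EM-males. The 6 EM-females (2 ovaries at each concentration) are used only where the sexes were compared. RNA of each gonad was sequenced on its own as a stranded poly(A) library. Each treatment was a single tank with 3 males and 3 females, so that concentration and tank cannot be told apart in any result below.

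Exemestane is a steroidal inhibitor of aromatase, the enzyme that converts androgens to estrogens. In fish, aromatase of the gonad sustains the ovary, and the adult testis makes little of it. A testis holds germ cells from stem cells to sperm, Sertoli cells that nurse them, and Leydig cells that make androgens, and its androgen synthesis starts with the cholesterol carrier *star* and runs through *cyp17a1* and *cyp11c1*. Gonads lie beside the intestine, pancreas and liver in the body cavity, so genes of those organs were followed as well.

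Expression was measured as the number of reads counted on each of 32520 genes, and from 4180861 to 8213907 reads were counted per EM-male. Levels are given as CPM, a gene's count relative to the library total, after TMM scaling, which corrects for differences in library composition over the 8 males. A slope is the log2 change of a gene for each doubling of concentration, fitted over the 6 fish with edgeR's quasi-likelihood test, and 18818 genes had enough counts to be tested. A gene was called where its two-sided p, adjusted by the Benjamini-Hochberg method over all tested genes, was under 0.05. In the text, R1 and R2 are the replicate numbers of the labels, and they name different fish.

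One library stood apart from the other 5. The second fish at 200 μg/L lay at 139.8 on the first principal component of the EM-males, which held 44.7% of the variance, and the next fish on that axis lay at 55.2. Germline and piRNA genes summed to 2289 CPM in this fish and to between 4773 and 6397 CPM in the others. Sertoli and Leydig cell genes summed to 1003 CPM against 1694 to 2094 CPM. It also had 49 genes more than 8 times higher than in every other EM-male, against 2 to 4 such genes in each of the others. Values without it are given beside several of the results that rest on it. In bulk tissue, fewer cells of a type and less RNA per cell cannot be told apart.

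Fish kept in one tank differed about as much as fish from different tanks. The 2 fish of a group differed more than 4-fold in 2071 genes (11.0%) for 50 μg/L, in 1249 genes (6.64%) for 100 μg/L and in 2370 genes (12.6%) for 200 μg/L. Between fish of different groups, the number ran from 1079 (5.73%) to 3355 (17.8%), and all 4 pairs above the within-group maximum of 2370 included a replicate 2 fish at 50 or 200 μg/L. The slopes were tested against the scatter of the fish around the fitted line. That scatter holds the spread within groups and any departure of the group means from the line.

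For a concentration trend, edgeR called 0 of 18818 genes (0%), limma-voom called 0, and DESeq2 called 66 (0.351%). At an unadjusted p under 0.05, edgeR had 465 genes with a positive slope (2.47%) and 393 with a negative one (2.09%), together 858 (4.56%). The smallest edgeR adjusted p was 0.246. Without the second fish at 200 μg/L, edgeR again called 0, with 900 genes at an unadjusted p under 0.05. Of the tested genes, 204 (1.08%) had groups in fully ascending order, that is, both fish at 50 μg/L below both at 100 μg/L and those below both at 200 μg/L, and 238 (1.26%) were in fully descending order. The genes described next had the smallest unadjusted p among these ordered genes with a symbol, 10 in each direction. Their order and their exact p of 0.0222, the smallest that the 90 possible assignments of 6 fish allow, follow from that choice and are a description. DESeq2 called 15 of these 20 genes, which were chosen by their p in the same data.

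*slc43a2b*, a member of the family of neutral amino acid transporters, had the smallest p of the ascending genes. Its level was 1.55 and 0.517 CPM at 50 μg/L, 7.22 and 14.6 CPM at 100 μg/L, and 84.3 and 124 CPM at 200 μg/L. No group overlapped another. On the log2 scale, the step from each concentration to the next was larger than the gap between the fish of a group. Its slope was 3.28 with a standard error of 0.32, and it lay between 3.10 and 3.58 with any single fish left out. The slope did not pass the threshold in edgeR (adjusted p = 0.246) but did in DESeq2 (adjusted p = 1.06e-14). The control males had 161 and 42.2 CPM, so the unexposed fish resembled those at the highest concentration and not those at the lowest.

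*ncapg* encodes a subunit of condensin, the complex that compacts chromosomes for division. It had 0.466 and 0.517 CPM at 50 μg/L, 1.27 and 2.89 CPM at 100 μg/L, and 72.5 and 58.3 CPM at 200 μg/L. The counts at 50 μg/L were at or under 3 reads, so the level at 200 μg/L was at least 105-fold higher. Here both control males, with 1.28 and 1.81 CPM, were at the level of the 100 μg/L fish. The slope of 3.73 (SE 0.43, edgeR adjusted p = 0.286) was called only when concentration was entered in μg/L instead of doublings, with an adjusted p of 0.0488, and in DESeq2. Of the 55 tested cell cycle and DNA replication genes it was the only one in ascending order, and *mki67*, the proliferation marker, had 265 and 328, 428 and 265, and 312 and 187 CPM in the same order of groups.

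Among the other 8 ascending genes, levels at 50 μg/L were at most 4.35 CPM. *tmem116*, a transmembrane protein gene, had 4.35 and 2.33 CPM, then 15.3 and 6.03 CPM, then 38.9 and 28.1 CPM, a slope of 1.65. *pex5*, the receptor that brings enzymes into peroxisomes, had 0.466 and 0.776 CPM, then 1.27 and 0.918 CPM, then 7.70 and 15.9 CPM. *adam8b*, of the membrane metalloprotease family that in mammals includes a leukocyte protease, had 2.80 and 2.33, then 4.35 and 12.3, then 16.3 and 45.8 CPM. In *adam8b* and *pex5* the second fish at 200 μg/L was the higher of its pair, and their slopes without it or any other single fish ran from 1.36 to 2.06 and from 1.80 to 2.61. *si:dkey-11o1.3* and *si:ch211-76m11.11* leaned on that fish most. The pair at 200 μg/L had 3.04 and 37.9 CPM for the first gene and 12.9 and 138 CPM for the second. Without that fish their slopes went from 4.99 to 2.97 and from 3.29 to 2.02. *si:dkey-11o1.3* had 0 counts in both fish at 50 μg/L, so its level at 200 μg/L was at least 32.9-fold higher. *nlrc3l2*, of the NLR family of immune sensors that is greatly expanded in fish, had 0.777 and 0.259 CPM at 50 μg/L and 6.09 and 15.6 CPM at 200 μg/L, and 24.1 and 15.5 CPM in the controls. *zgc:112023* and *si:dkey-27d5.13* complete the group, with slopes of 3.15 and 2.13.

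The descending genes included 3 with more than 100 CPM in a fish at 50 μg/L. *aqp12* encodes an aquaporin known in mammals from the secretory cells of the pancreas. Its level was 231 and 188 CPM at 50 μg/L, 109 and 139 CPM at 100 μg/L, and 67.0 and 80.8 CPM at 200 μg/L. The pairs were tight and separate, and the level at 50 μg/L was 2.83-fold that at 200 μg/L, with a slope of -0.75 (SE 0.16, edgeR adjusted p = 0.904). The control males, with 78.6 and 58.4 CPM, lay with the 200 μg/L fish. *pimr189*, of the large fish family of Pim-related kinases, had 195 and 110 CPM, then 89.6 and 67.2 CPM, then 38.9 and 35.8 CPM, a slope of -1.01, and 19.6 and 43.9 CPM in the controls. *si:dkey-3k20.1* had 128 and 60.3, then 37.4 and 32.0, then 23.8 and 21.0 CPM. *si:dkey-199f5.4* had 35.8 and 48.1, then 17.0 and 21.4, then 4.48 and 1.79 CPM, so that the level at 50 μg/L was 13.4-fold that at 200 μg/L. Both zinc finger genes of the set were low in all EM-males: *znfl1b* had at most 4.40 CPM and *znf1060* at most 4.92 CPM, and at 200 μg/L both were at or under 3 counts. The controls had 0 and 0.346 CPM of *znfl1b* and 5.78 and 4.15 CPM of *znf1060*. The remaining 4, *si:ch211-113a14.23*, *si:dkeyp-104f11.6*, *si:ch211-207m11.3* and *si:dkey-265e15.2*, had slopes between -1.50 and -2.40.

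**Figure D1:**
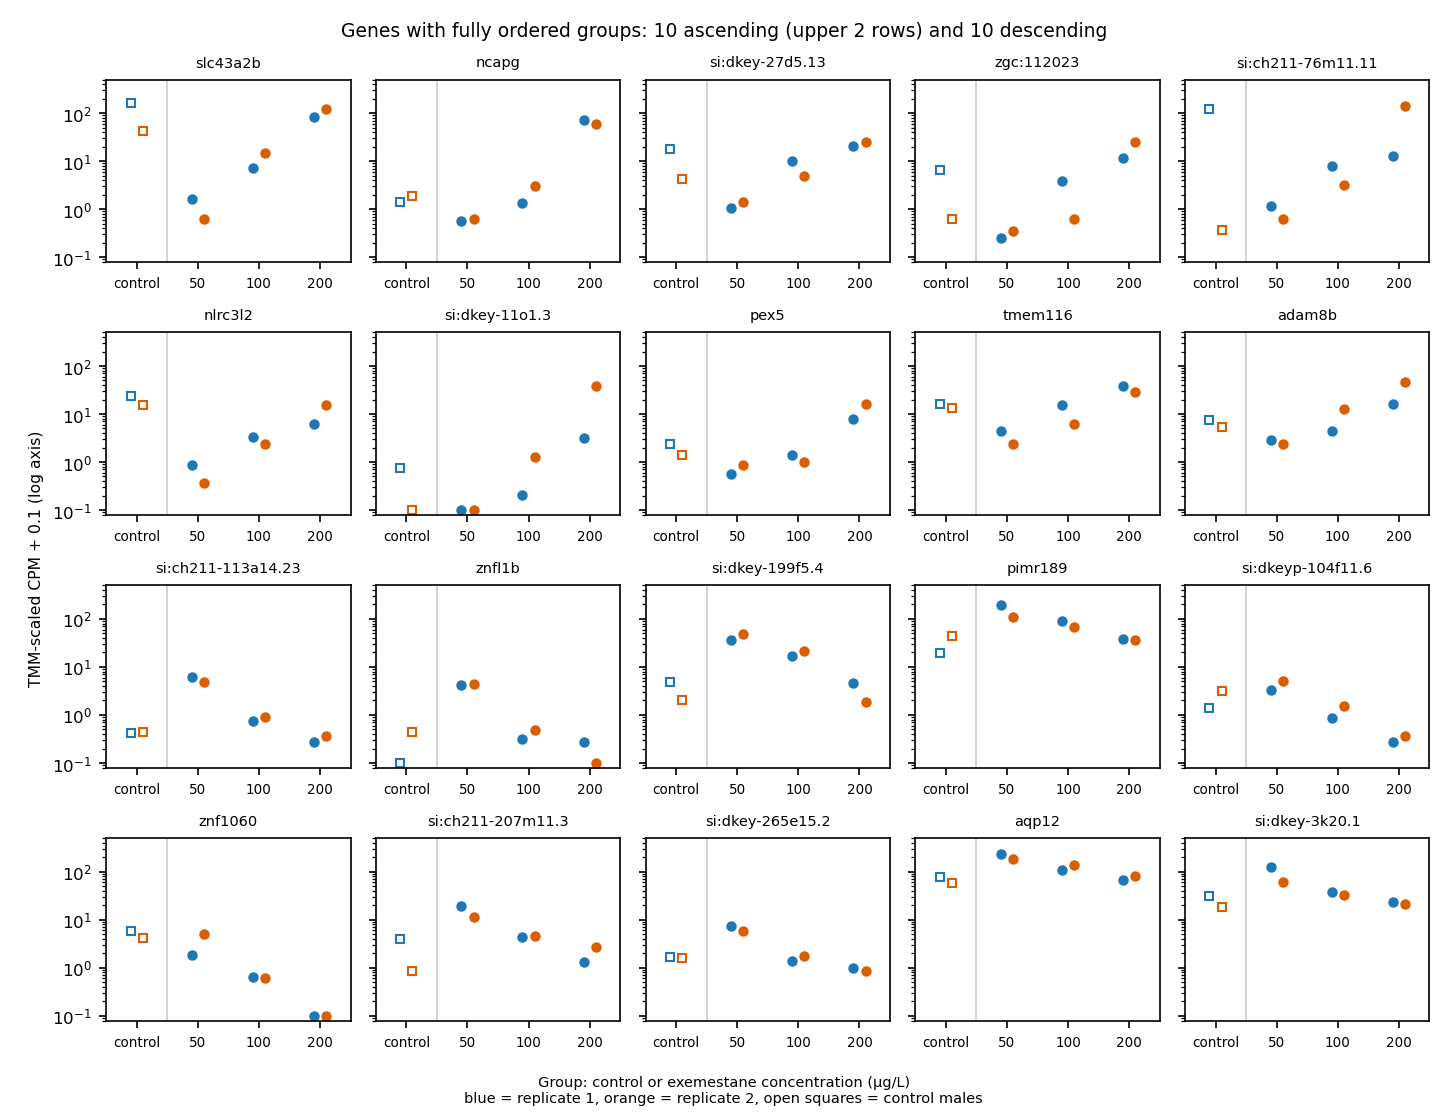
TMM-scaled CPM plus 0.1 on a log axis for each testis (points, 2 fish per group) in the 10 ascending and 10 descending genes with the smallest unadjusted p among fully ordered groups; open squares are the control males, which were not in the fit. In *slc43a2b* the controls, at 161 and 42.2 CPM, sit beside the 200 μg/L fish, while in *ncapg* both controls, at 1.28 and 1.81 CPM, sit beside the 100 μg/L fish.

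In 8 of the 10 ascending and 9 of the 10 descending genes, both control males lay on the 200 μg/L side of both 50 μg/L fish. The rule picked genes for extreme values at 50 μg/L. Over all tested genes both controls lay above both 50 μg/L fish in 2958 (15.7%) and below them in 3576 (19.0%). Those shares were taken without that choice of genes, so they are not a like measure for the chosen ones. The exceptions were *si:ch211-76m11.11* and *si:dkey-11o1.3* among the ascending genes, where the controls straddled or touched the 50 μg/L pair, and *znf1060* among the descending ones. On CPM plus 0.1, the controls themselves differed more than 4-fold in 4 ascending and 2 descending genes. These counts include *si:dkey-11o1.3*, with 0.642 and 0 CPM, and *znfl1b*, with 0 and 0.346 CPM, where both values are too low to establish a fold.

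The ovary was compared in the same way, and its own trend gave 0 calls of 15650 genes in edgeR (0%), 677 genes (4.33%) at an unadjusted p under 0.05 and 100 calls in DESeq2. Only 6 of the ascending genes and 1 of the descending ones had enough counts to be tested in the EM-females. Of the 6, 4 had the same sign of slope there, among them *slc43a2b* and *ncapg*. The ovary slope of *slc43a2b* was 1.15 (edgeR adjusted p = 0.9998). *ncapg* had 1.35 and 10.8 CPM in the ovaries at 50 μg/L, 296 and 6.52 CPM at 100 μg/L, and 161 and 162 CPM at 200 μg/L. *tmem116* and *zgc:112023* had negative ovary slopes, of -1.24 and -0.000187. *tmem116* had 2.14 and 34.6 CPM in the ovaries at 50 μg/L and between 2.64 and 4.71 CPM at the higher concentrations. *zgc:112023* had 0.081 CPM in 1 ovary at 100 μg/L and between 2.14 and 2.18 CPM in the others. The descending gene, *si:ch211-113a14.23*, had the opposite sign in the ovary (slope 0.12). The difference between the testis and ovary slopes did not pass the threshold in any of these ascending and descending genes (smallest edgeR adjusted p = 0.912). In edgeR, this difference passed in none of the 21583 genes tested for it (0%, 1111 or 5.15% at an unadjusted p under 0.05, and 23 called by DESeq2). Its smallest adjusted p, 0.068, belonged to *opn6a*, an opsin gene. *opn6a* had 9.33 and 8.28, 10.1 and 8.79, and 12.2 and 5.12 CPM in the testes from low to high concentration. In the ovaries it had 3.42 and 3.51 CPM at 50 μg/L and at most 0.082 CPM at the higher concentrations. Thus the testis slope was -0.01 while the ovary slope was -5.54. *sybu*, which encodes syntabulin, a linker of kinesin motors to cargo, had an ascending series in the testes, with 2.95 and 2.59 CPM at 50 μg/L, 33.3 and 30.6 CPM at 100 μg/L, and 44.6 and 48.6 CPM at 200 μg/L, against ovary levels of 458 and 549, 504 and 503, and 258 and 230 CPM (adjusted p of the difference = 0.894). For *pimr199*, *muc5f*, a mucin gene, and *si:dkey-10p5.10*, testis slopes of -0.51, -0.50 and -0.54 stood beside ovary slopes of 1.68, 1.84 and 2.16, with adjusted p of the difference from 0.604 to 0.894.

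A run of genes named from one clone, dkey-27d5, stood out on reading the results and was chosen after its values were seen, so it is described without a test. Of its 13 genes, all of which were tested, 13 had a positive slope, with a median of 2.52, and in 12 both fish at 200 μg/L were above all 4 fish at 50 and 100 μg/L. Over all tested genes this last arrangement was found in 1244 (6.61%) and the median slope was 0.02. The roles of these genes are not annotated in the names used here. Summed over the 13 genes, the levels were 8.71 and 13.5 CPM at 50 μg/L, 21.3 and 24.4 CPM at 100 μg/L, and 153 and 166 CPM at 200 μg/L. The pairs were close to each other within each concentration, and the second fish at 200 μg/L did not stand apart. The control males were far apart, with 100.5 CPM in the first and 8.72 CPM in the second.

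Single genes of the clone were close to on or off. *si:dkey-27d5.14* had 0 and 0.259 CPM at 50 μg/L, 0.106 and 0 CPM at 100 μg/L, 18.1 and 18.7 CPM at 200 μg/L, and 17.7 and 0 CPM in the controls, so that the level at 200 μg/L was at least 29.6-fold that at 50 μg/L. *si:dkey-27d5.5* had at most 0.525 CPM at the lower concentrations, 13.3 and 11.8 CPM at 200 μg/L, and 12.5 and 0 CPM in the controls. *si:dkey-27d5.12* had 6.45 and 8.70 CPM at 200 μg/L and a slope of 6.07 with the smallest adjusted p of the fit beside *slc43a2b*, 0.246. It had 0 counts in both fish at 50 μg/L, so its slope is not a measured fold. The level at 200 μg/L was at least 12.2-fold that at 50 μg/L. The gene with the median slope of 2.52, *si:dkey-27d5.3*, had 0 and 1 counts at 50 μg/L, and its level at 200 μg/L was at least 11.3-fold higher. *si:dkey-27d5.10* was the exception, with 2.33 and 6.91 CPM at 200 μg/L within the range of 1.24 to 7.43 CPM of the other EM-males. DESeq2 called 7 of the 13, against 66 of all 18818 tested genes (0.351%). The 13 genes were chosen after their values were seen, and most of the 7 had at most 3 counts in each fish at 50 μg/L. In the 6 EM-females the 13 genes together had at most 4 counts per ovary. Among the 5 clone names with at least 8 tested genes, the medians of the other 4 ran from -0.33 to -0.09. Clones with fewer tested genes were not compared in this way. Among the genes that DESeq2 called, those of clone dkey-250k15 had slopes of 3.25, 4.53 and 6.27. These had at most 1 count per fish at 50 μg/L and pairs that lay far apart. *si:dkey-250k15.4* had 0.743 and 42.6 CPM at 100 μg/L. At 200 μg/L, *si:dkey-250k15.7* had 1.43 and 31.7 CPM and *si:dkey-250k15.10* had 5.91 and 43.5 CPM. The called genes of clone ch211-156l18 had slopes of 3.95 and 2.27, and those of clone dkey-199f5 had slopes of -1.83 and -1.75. Whether the rise was particular to dkey-27d5 was not tested. Genes of such clones and of the Pim, NLR and zinc finger families have near copies, and reads that mapped to several places, 24.8% to 31.7% of the tallied reads in the EM-males, were not counted, so levels of single copies are uncertain.

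**Figure D2:**
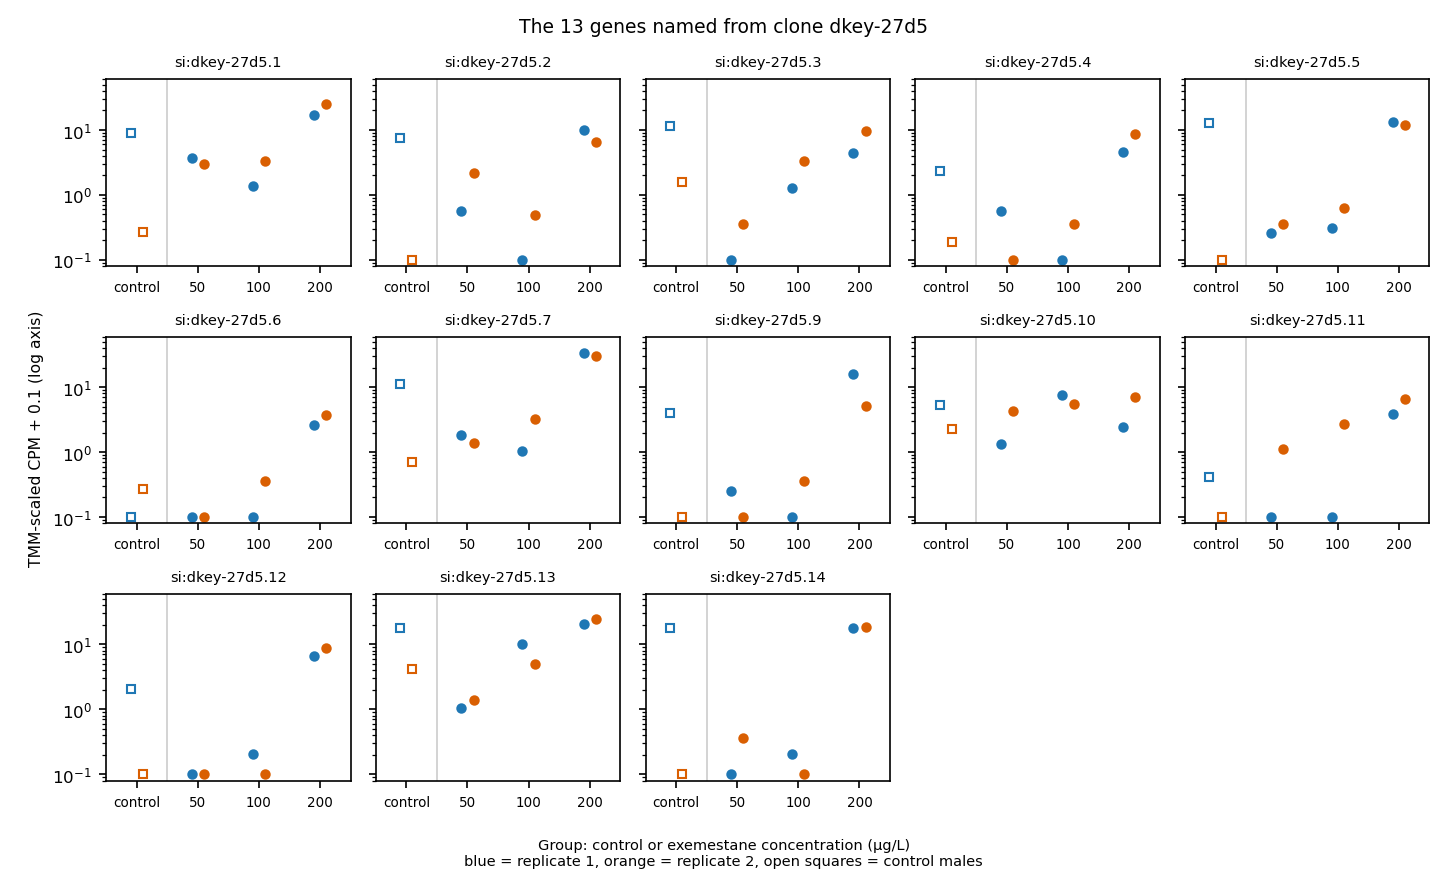
TMM-scaled CPM plus 0.1 on a log axis for each testis in the 13 genes of clone dkey-27d5, by group, with control males as open squares. In 12 genes both fish at 200 μg/L lie above the 4 fish at 50 and 100 μg/L, and the exception is *si:dkey-27d5.10*.

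A straight line over concentration misses genes that differ at the middle concentration. For curvature, edgeR called 0 of 18818 genes (0%) and DESeq2 called 150, and 1257 (6.68%) had an unadjusted edgeR p under 0.05. For any difference among the 3 groups, edgeR called 0 (0%) and DESeq2 called 206, and 1036 genes (5.51%) had an unadjusted edgeR p under 0.05. The contrasts of 100 with 50, 200 with 100 and 200 with 50 μg/L also gave 0 calls each, with 914 (4.86%), 1538 (8.17%) and 915 (4.86%) genes at an unadjusted p under 0.05, and 101, 244 and 100 called by DESeq2. With the replicate number as a block, edgeR called 2 genes for curvature and 2 for 200 against 100 μg/L, in both cases *apoea*, an apolipoprotein E gene, and *si:ch211-213a13.11*. Counting arrangements only, the 100 μg/L pair was above all 4 other EM-males in 1996 genes (10.6%) and below them in 1374 (7.30%). The same numbers were 1244 (6.61%) and 1647 (8.75%) for the 200 μg/L pair, and 1245 (6.62%) and 1188 (6.31%) for the 50 μg/L pair.

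Several of the genes with the smallest curvature p were present in one tank and nearly absent in another. They were singled out after their values were seen. *hnrnpa0a* encodes an RNA-binding protein of the hnRNP family. It had 83.0 and 75.8 CPM at 50 μg/L, 0.106 and 0 CPM at 100 μg/L, and 22.6 and 21.0 CPM at 200 μg/L. The pairs agreed closely, yet the control males had 0 and 41.5 CPM, so the near absence seen at 100 μg/L also occurred in 1 of the 2 unexposed fish. The ovaries at 100 μg/L had 3.58 and 2.64 CPM of *hnrnpa0a*. Its curvature in the testes did not pass the threshold in edgeR (adjusted p = 0.217). It did in edgeR without the filter on low counts (adjusted p = 0.0156) and in DESeq2 (adjusted p = 1.58e-07).

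*bida*, the zebrafish counterpart of the pro-apoptotic gene BID, had 96.2 and 32.9 CPM at 50 μg/L, 238 and 294 CPM at 100 μg/L, and 0.179 and 0.512 CPM at 200 μg/L. Both males of the highest concentration had at most 3 counts, and both control males were at the level of the lower concentrations, with 75.1 and 99.2 CPM. In the ovaries, *bida* had between 5.28 and 39.3 CPM at 50 and 100 μg/L, and 0.108 and 0.182 CPM at 200 μg/L. Both sexes of a concentration shared a tank, so the low values at 200 μg/L were common to the sequenced males and females of that tank. The ovary slope of *bida* did not pass the threshold in edgeR (adjusted p = 0.9998). In the testes, the curvature of *bida* had an edgeR adjusted p of 0.308, and 0.0171 without the filter. *kif5c*, a kinesin motor gene, was high in the middle group alone: 1.71 and 2.07 CPM at 50 μg/L, 21.6 and 22.7 CPM at 100 μg/L, and 1.43 and 0.767 CPM at 200 μg/L, with 0.321 and 1.04 CPM in the controls. *ccdc15*, a coiled-coil protein gene, had the same shape among EM-males, with 93.5 and 48.8 CPM at 100 μg/L and at most 3.36 CPM at the other concentrations. Its controls were not low, however, at 32.7 and 190 CPM. DESeq2 called the curvature of *kif5c* (adjusted p = 8.32e-08) and of *ccdc15* (adjusted p = 8.71e-10), and edgeR did not. *clcn3*, a chloride-proton exchanger of endosomes, had the reverse shape, with 67.6 and 90.8, 10.9 and 11.1, and 56.9 and 47.8 CPM from low to high concentration, and 49.1 and 53.4 CPM in the controls.

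Other genes, also singled out after their values were seen, set the lowest concentration apart. *si:ch211-163m17.5* had 49.3 and 62.6 CPM at 50 μg/L, 0 and 0 CPM at 100 μg/L, and 0.358 and 0.767 CPM at 200 μg/L, with 0 and 20.8 CPM in the controls. The level at 50 μg/L was at least 85.8-fold that at 200 μg/L. *dnajc9*, a J-domain cochaperone that handles histones, had 0.933 and 1.81 CPM at 50 μg/L, 107 and 37.2 CPM at 100 μg/L, and 60.3 and 46.8 CPM at 200 μg/L, with 58.4 and 70.7 CPM in the controls. In both, the tank at 50 μg/L was the one that differed from the other exposed tanks, in opposite directions. *rpl39*, a ribosomal protein gene, had 315 and 174 CPM at 50 μg/L and between 19.7 and 48.9 CPM at the higher concentrations, with 53.0 and 71.1 CPM in the controls.

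**Figure D3:**
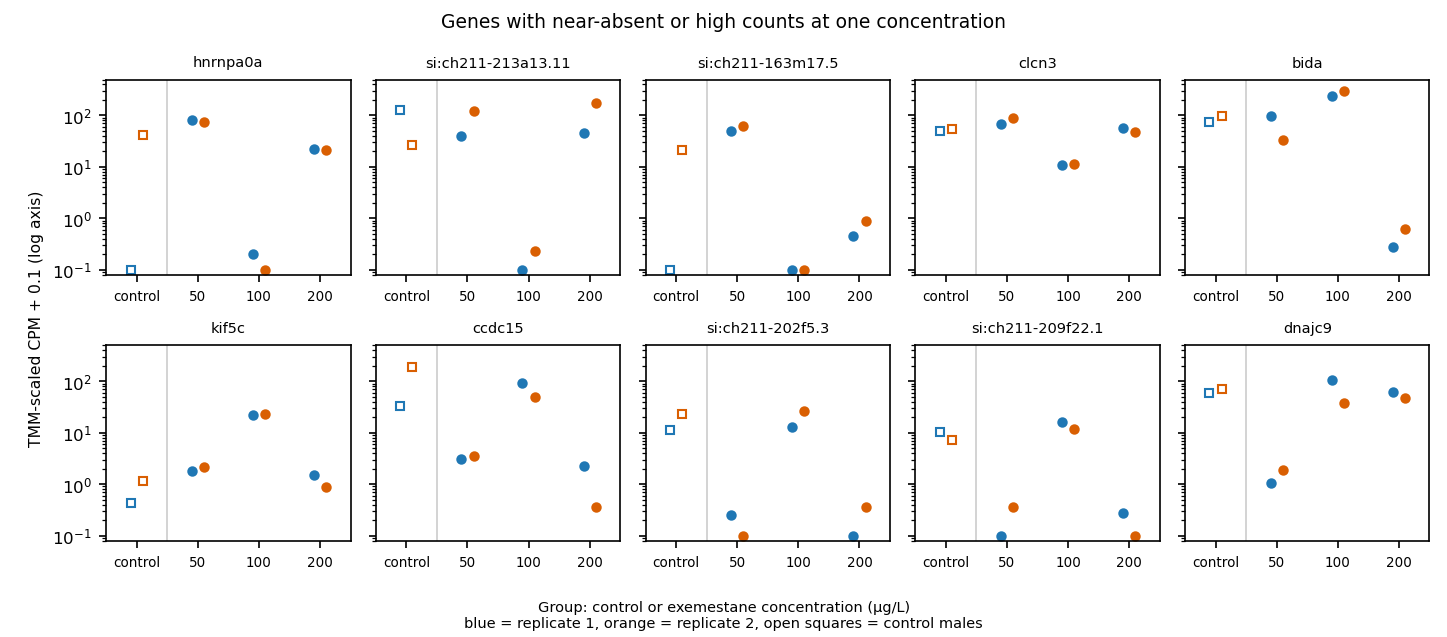
TMM-scaled CPM plus 0.1 on a log axis for each testis in 10 genes, with control males as open squares. At a single concentration, each gene was nearly absent, high or, for *clcn3*, lower than at the others. *hnrnpa0a* is at 0.106 and 0 CPM in the 100 μg/L pair and at 0 and 41.5 CPM in the controls. Among the testes, *bida* is nearly absent only in the 200 μg/L pair, at 0.179 and 0.512 CPM.

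Of the 66 genes that DESeq2 called for a trend, 50 had a positive slope (0.266%) and 16 a negative one (0.085%). 62 of them had an unadjusted edgeR p under 0.05, and 29 had fully ordered groups. In 27 genes a group had at most 3 counts in both fish, and in 14 one fish at 200 μg/L was more than 4 times the other. The clearest example of the last kind were the chitinase genes *chia.1* and *chia.3*. *chia.1* had between 0.517 and 2.87 CPM in 5 EM-males and 2462 CPM in the second fish at 200 μg/L. Its slope was 5.78 with that fish and 0.85 without it. Others, also picked after their values were seen, did not depend on one fish. *ddx11*, a DNA helicase gene that keeps sister chromatids joined, had 685 and 506 CPM at 50 μg/L, 122 and 81.7 CPM at 100 μg/L, and 86.0 and 40.2 CPM at 200 μg/L, and its slope was -1.62 with all 6 fish and -1.52 without the second fish at 200 μg/L. Its controls had 212 and 56.0 CPM. *usp5*, a deubiquitinase gene, had 4.66 and 6.21, 5.31 and 72.5, and 102 and 150 CPM, with 6.10 and 6.82 CPM in the controls. *cdca3*, which promotes entry into mitosis, had at most 0.656 CPM at the lower concentrations and in the controls, and 9.67 and 12.5 CPM at 200 μg/L. *cxcr3.3*, a chemokine receptor gene, was at 0 in both fish at 50 μg/L and in both controls, with 5.37 and 17.1 CPM at 200 μg/L.

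In the gene groups described next edgeR called no member (0% of all tested genes were called), while DESeq2 called *ncapg* among cell cycle genes and *chia.1* among pancreas and intestine genes. For comparison, 2.47% of all tested genes had an unadjusted p under 0.05 with a positive slope and 2.09% with a negative slope. Of 24 tested genes of steroid hormone synthesis, none reached even the unadjusted level, 15 slopes were positive and 9 negative (52.2% of all tested genes had a positive slope), and the median slope was 0.09 against 0.02 over all genes, and -0.00 without the second fish at 200 μg/L. *star* had 234 and 190 CPM at 50 μg/L, 98.0 and 187 CPM at 100 μg/L, and 226 and 237 CPM at 200 μg/L. *cyp11c1*, a step toward 11-ketotestosterone, the main androgen of fish, had 284 and 73.5, 71.7 and 80.9, and 242 and 247 CPM. For both genes the groups overlapped, and the first fish at 50 μg/L was as high as the 200 μg/L pair. *cyp17a1* ran from 12.4 to 50.2 CPM with a slope of 0.11 (SE 0.39). *cyp19a1a*, the gonadal aromatase gene and the direct target of EM, had too few counts to be tested, with 2.18 CPM in 1 fish and at most 0.656 CPM in the other 5. None of the 11 tested receptor genes for steroids and gonadotropins reached the unadjusted level, and *ar*, the androgen receptor, had between 0.918 and 2.33 CPM.

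Sertoli and Leydig cell genes had 1 of 18 members at an unadjusted p under 0.05. This was *gsdf*, a growth factor of the TGF-beta superfamily made by Sertoli cells of fish. *gsdf* had 1195 and 1356 CPM at 50 μg/L, 973 and 896 CPM at 100 μg/L, and 878 and 507 CPM at 200 μg/L. The pairs were in descending order with no overlap, the slope was -0.44 (SE 0.19) and the adjusted edgeR p was 0.904. The controls had 1354 and 977 CPM, above both fish at 100 μg/L and under the higher of the fish at 50 μg/L. Leaving out 1 fish gave slopes from -0.62 to -0.31. *amh*, the anti-Müllerian hormone gene of Sertoli cells, had 84.7 and 106 CPM, then 201 and 145 CPM, then 212 and 40.9 CPM. The 2 fish at 200 μg/L held the highest and the lowest value, so its slope of 0.21 turned to -0.25 or 0.60 depending on the fish left out. *insl3*, the Leydig cell peptide, lay between 245 and 618 CPM in all 6 EM-males with a slope of -0.25 (SE 0.24), and its controls had 1588 and 1376 CPM. Its 3 concentrations overlapped, and every exposed fish lay under both controls. This difference from the controls was not tested, and the share of all genes with that arrangement was not counted.

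The main germline genes were lowest in 1 fish at 200 μg/L. *ddx4*, the germ cell helicase vasa, had 963 and 649, 635 and 757, and 1045 and 265 CPM. *piwil1*, a piRNA-binding Argonaute protein, had 760 and 722, 936 and 859, and 1182 and 301 CPM. *dazl*, a germ cell translation regulator, had 597 and 538, 593 and 549, and 647 and 157 CPM. In each of these genes the first fish at 200 μg/L was the highest of the 6 EM-males and the second the lowest. The median slope of the 21 tested germline and piRNA genes was -0.23 with that second fish and 0.04 without it, and -0.45 without the first fish at 200 μg/L. At an unadjusted p under 0.05 there was 1 of the 21, *mov10b.1*, of a family of RNA helicases, with a positive slope of 1.33 and its highest level, 82.1 CPM, in that second fish. Of the 32 meiosis genes none reached an unadjusted p under 0.05, and *sycp1*, of the synaptonemal complex, ran from 27.1 CPM in that fish to 731 CPM in the first fish at 100 μg/L. The 76 sperm flagellum and cilium genes had a median slope of -0.08, which was 0.00 without the second and 0.03 without the first fish at 200 μg/L, and -0.21 without the second fish at 50 μg/L. *rsph4a*, a radial spoke protein gene, was level at 464 and 348, 453 and 472, and 469 and 367 CPM. 2 of the 76, *zmynd10* and *spag1a*, both needed to assemble dynein arms, had a positive slope at the unadjusted level, and for *spag1a* the second fish at 200 μg/L, at 111 CPM, carried most of it.

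Cell division genes had *ncapg* on one side and *mcm10*, which starts DNA replication, on the other. *mcm10* had 58.3 and 50.5 CPM at 50 μg/L, 45.8 and 28.1 CPM at 100 μg/L, and 26.9 and 21.5 CPM at 200 μg/L, in descending order without overlap (slope -0.58, SE 0.19, edgeR adjusted p = 0.904). Its controls had 31.5 and 49.2 CPM. The sliding clamp gene *pcna* had 334 and 336, 434 and 266, and 296 and 191 CPM, with overlapping groups. Of the 55 genes, 40 slopes were negative, with a median of -0.19, which was 0.01 without the second fish at 200 μg/L. Egg genes summed to between 573 and 845 CPM in the EM-males, and to 2776 and 705 CPM in the controls. Among them, *zar1* had at most 7.15 CPM in the EM-males. Of the 31 tested egg genes 1, *cldnd*, a claudin gene, had an unadjusted p under 0.05 (slope -0.73, edgeR adjusted p = 0.904).

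Drug metabolism genes had 4 of 46 members with a positive slope and 1 with a negative slope at an unadjusted p under 0.05. *ahr2*, a receptor that senses foreign aromatic compounds, had 50.8 and 37.8 CPM at 50 μg/L, 55.9 and 64.7 CPM at 100 μg/L, and 92.6 and 109 CPM at 200 μg/L. The groups were in ascending order, with a slope of 0.60 (SE 0.17, edgeR adjusted p = 0.904) that stayed between 0.51 and 0.71 with 1 fish left out, and the controls had 121 and 35.4 CPM, as far apart as the extremes of the EM-males. *abcg2b*, of a family of drug efflux pumps, was in descending order, with 18.2 and 29.5, 13.3 and 17.6, and 5.55 and 6.40 CPM (slope -0.99, SE 0.26). The remaining 3, *sult1st1*, a sulfotransferase gene, and the cytochrome P450 genes *cyp3c3* and *cyp2k18*, had the second fish at 200 μg/L as the highest, with 104, 238 and 65.7 CPM. *cyp3a65*, of the P450 family that in mammals handles most drugs, had 1.71 and 117 CPM at 50 μg/L, 1.27 and 41.2 CPM at 100 μg/L, and 48.3 and 333 CPM at 200 μg/L. In every group the second fish was the higher, and its slope of 0.85 had a standard error of 0.90. The median slope of the list was 0.28, and became -0.17 without the second fish at 200 μg/L and 0.63 without the second fish at 50 μg/L.

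Among 59 stress and apoptosis genes, 2 had a positive slope at the unadjusted level. *dnajb1b*, a cochaperone of Hsp70, had 72.1 and 130, 142 and 174, and 188 and 337 CPM in ascending order (slope 0.69, SE 0.22, edgeR adjusted p = 0.904), with 58.7 and 157 CPM in the controls. *hsp70.3*, an inducible heat shock gene, had 15.5 and 55.4, 42.3 and 16.3, and 66.1 and 472 CPM, and its slope ran from 0.35 to 2.21 with 1 fish left out. The controls had 8.35 and 9.50 CPM of *hsp70.3*, below every EM-male. That arrangement was not tested or counted over all genes either. Of the 11 membrane ruffling genes none reached the unadjusted level. *eps8l1b*, which binds actin regulators, had 35.1 and 54.3, 29.6 and 127, and 126 and 46.0 CPM, with no order by concentration.

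Genes of neighbouring organs differed between fish more than any testis group. The list of 26 pancreas and intestine genes was written after the data were seen. It summed to 484 and 11998 CPM at 50 μg/L, 514 and 804 CPM at 100 μg/L, and 5607 and 22076 CPM at 200 μg/L, with 39976 and 3978 CPM in the controls. In each exposed group the second fish had the higher sum. *fabp6*, the bile acid binding protein of the intestine, had 0.933 and 3248, 0.319 and 148, and 1054 and 3558 CPM, and *prss1*, pancreatic trypsin, had 66.8 and 2154, 91.3 and 87.0, and 1174 and 2491 CPM. All 26 genes had counts in at least 1 EM-male. Vitellogenin and liver genes summed to 481 and 6358, 1593 and 1998, and 1283 and 12755 CPM, and immune cell genes to 1028 and 3201, 1141 and 1326, and 1807 and 5816 CPM. The 13 genes of the mitochondrial genome were also listed after the data were seen. Their share of counts was 4.90% and 14.9%, 3.25% and 5.63%, and 12.4% and 13.5%, with 16.6% and 3.13% in the controls. The part of these lists in the slopes was not tested.

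**Figure D4:**
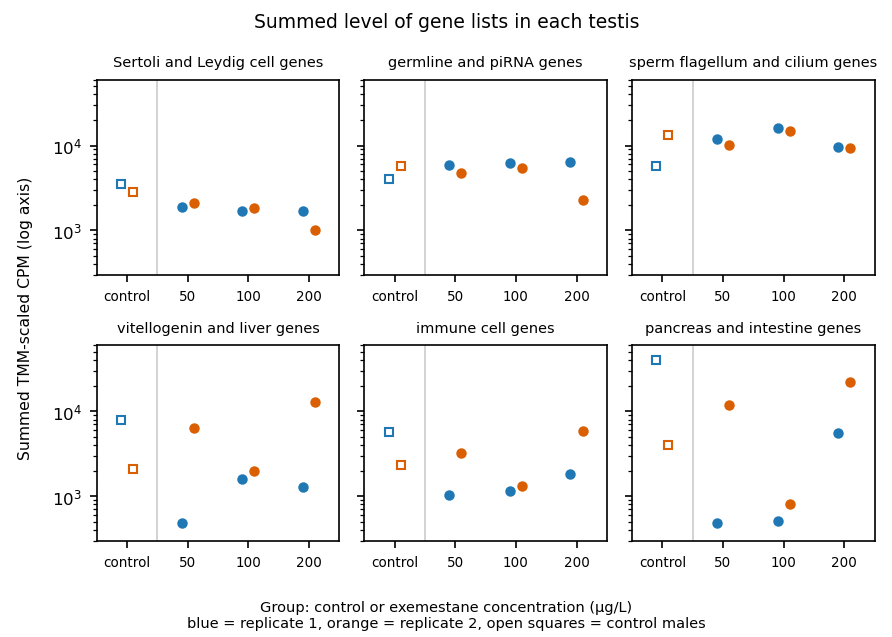
Summed TMM-scaled CPM on a log axis for 6 gene lists in each testis, by group, with control males as open squares. Pancreas and intestine genes run from 484 to 22076 CPM among the EM-males with the second fish higher at each concentration, while germline and piRNA genes lie between 4773 and 6397 CPM in 5 fish and at 2289 CPM in the second fish at 200 μg/L.

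The medians of these lists depended on 2 fish, the second at 200 μg/L and the second at 50 μg/L. For pancreas and intestine genes the median slope was 0.47 with all 6 fish, -0.31 without the second fish at 200 μg/L and 2.95 without the second fish at 50 μg/L, and with the replicate number as a block it was 1.17. Vitellogenin and liver genes had a median of -0.16, which became -0.81 without the former fish and 0.89 without the latter. The values in the same order were 0.30, -0.10 and 1.01 for mitochondrial genes, and 0.43, -0.20 and 0.79 for immune cell genes. They were 0.15, -0.12 and 0.35 for stress and apoptosis genes, and 0.20, -0.09 and 0.40 for connective tissue and muscle genes. In all 6 lists the median was lower without the second fish at 200 μg/L and higher without the second fish at 50 μg/L, and these fish had the 2 highest sums of pancreas and intestine genes among the EM-males. At the unadjusted level, 2 of 26 pancreas and intestine genes (*chia.1* and *chia.2*), 2 of 29 immune cell genes (*zap70* and *cd4-1*, of T cells) and 1 of 43 connective tissue and muscle genes (*lum*, a collagen-binding proteoglycan) had positive slopes. With a negative slope there were 1 of 33 vitellogenin and liver genes (*ces2a*, a carboxylesterase) and 1 of 7 blood genes (*hbaa2*, an alpha globin). None of these passed the adjusted threshold in edgeR (adjusted p = 0.904 for each).

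**Figure D5:**
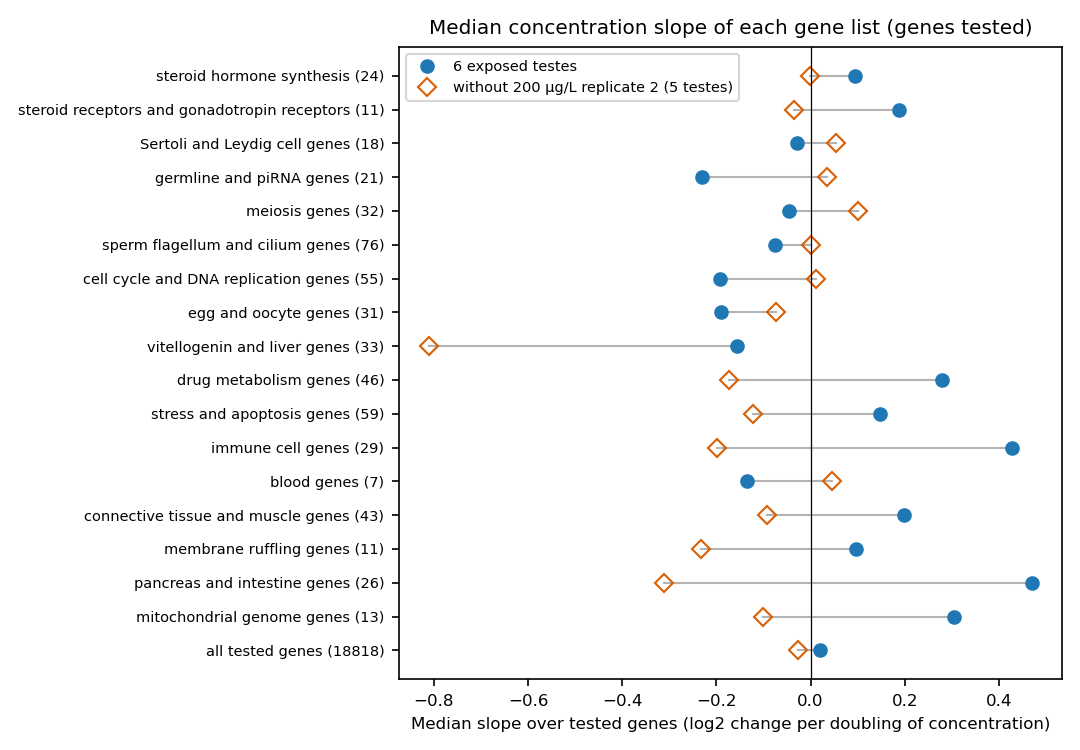
Median slope (log2 change per doubling of concentration) over the tested genes of each list, with all 6 EM-males (filled circles) and without the second fish at 200 μg/L (open diamonds); the number of tested genes is in parentheses. The median moves from 0.47 to -0.31 for pancreas and intestine genes and from -0.23 to 0.04 for germline and piRNA genes, against 0.02 and -0.03 over all 18818 genes.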

How the data were processed

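The authors mapped reads of 16 adult gonad libraries to GRCz11 with HISAT2 2.0.5 and counted them per gene by strand with HTSeq 0.9.1, per the methods and the submitters' processing notes. The deposited table holds whole-number read counts, not normalized, for 32520 genes. The 5 tally rows were dropped, and 1 cell with 2 values was read as 2 values. The authors' normalized table was not used. Symbols were found for 29269 genes (4388 in supplementary tables, 24881 in a reference table).

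Trends over steps 0, 1 and 2 (50, 100 and 200 μg/L) were fitted on the 6 EM-males with edgeR 4.0.16 in R 4.3.3 (TMM, filterByExpr, robust quasi-likelihood F-test, two-sided, Benjamini-Hochberg, threshold 0.05, 4 residual degrees of freedom). DESeq2 1.42.0, its size factors within edgeR, no low-count filter, a replicate block, 8 males in one model, concentration in μg/L, pairs of groups alone and each fish left out were alternatives, with limma-voom 3.58.1 added after the data were seen. Scripts were tested on simulated data. Exact permutation p were computed on log2(CPM + 1), and 3 counts per library was the floor for fold bounds.

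Same-numbered testes deviated together (correlations 0.244, 0.332 and 0.158 over 18818 genes, numbers from the labels), ovaries did not (-0.004 to -0.029). Genes named in each direction were the 10 with the smallest unadjusted p among ordered genes with a symbol, the leading and defining members of each list, and the 5 with the smallest p for the slope difference. Further genes were chosen after their values were seen. These were the genes of clone dkey-27d5, of the curvature and pairwise fits, and the examples of DESeq2 calls. Members and lists were chosen with earlier results of these data known. p-values rest on the spread between fish of a single tank per treatment. Those of the slopes also rest on departures of the group means from the line.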

Additional observations from a re-analysis of the deposited data

How the results depend on the processing

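Each slope was tested with 2 fish per concentration from a single tank, and counts of 0 do not show that the concentrations act alike. The trend gave 0 calls in edgeR with DESeq2's size factors, without the low-count filter, with the replicate block (1063 genes at an unadjusted p under 0.05), in one model of all 8 males and in limma-voom, 1 call with concentration in μg/L (*ncapg*), and 66 in DESeq2. DESeq2 called 150 genes for curvature, 206 for any difference, 101, 244 and 100 for 100 against 50, 200 against 100 and 200 against 50 μg/L, 100 for the ovary trend and 23 for the slope difference. Without the low-count filter, edgeR called 2 genes for curvature (*hnrnpa0a* and *bida*), 7 for any difference, and 3, 2 and 4 for the pairwise contrasts in the same order. With the replicate block, pairing fish of the same number, it called 2 genes for curvature and 2 for 200 against 100 μg/L (*apoea* and *si:ch211-213a13.11* in both), and the block changed no other count. Leaving out each fish in turn gave 0 to 2 calls for any difference, 0 to 3 for 200 against 100, 0 to 3 for 200 against 50 μg/L, and 0 to 0 for the trend, curvature, 100 against 50 μg/L, the ovary trend and the slope difference. All of those calls came without the first fish at 200 μg/L, which left the second as the only fish of its group: 2 for any difference and 3 for each contrast, namely *slc34a2*, *chia.1* and, in the contrasts, *hpf1*. *hpf1* had 198 CPM in the first fish and 0.256 CPM in the second.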
